A study of Mus musculus with 16 samples.

Results

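The genes described here were the collagens and a set of named genes of the interstitial matrix in spontaneous lung tumors and metastases of mice. A gene was taken when a probe set was annotated to a single symbol that was a collagen chain, or to 1 of 13 further symbols: Fn1, Sparc, Tnc, Fbn1, Fbln1, Fbln2, Lum, Dcn, Bgn, Postn, Lox, Loxl2 and Tgfbi. The probe set that was brightest over the 16 tumors stood for each gene. This gave 47 genes of the 12393 with such a probe set, represented by 79 of the 22626 probe sets tested. They comprised 36 collagens and 11 of the 13 further genes, while Fbn1 and Loxl2 were not analysed here. The rule itself uses gene names and brightness, and it was proposed with earlier results of these data known.

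The tumors were 9 metastases and 7 primary lung adenocarcinomas of p53R172HΔg/+ K-rasLA1/+ mice, which carry 1 missense mutant copy of p53 and 1 latent oncogenic copy of K-ras that is switched on in single cells by spontaneous recombination. All 16 tumors shared this genotype, none of the mice was labelled as treated, and no age was given in the sources used here. Mouse 1 gave a body wall, an inguinal body wall and a liver metastasis, mouse 2 a liver metastasis, mouse 3 a body wall, a heart and a mediastinal lymph node metastasis, and mouse 4 a mediastinal lymph node and a parietal pleura metastasis. Each of these 4 mice also gave 1 primary tumor, and mice 5, 6 and 7 gave a primary tumor alone. The primary tumor of mouse 6 came from a female and all other tumors from males. Adjacent tissue had been dissected away, and 1 Affymetrix 430A 2.0 array was hybridized per tumor, which gives an intensity for each probe set on a linear scale. The metastases of a mouse are compared with the same single primary tumor, so they are not independent of each other.

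Collagens are built from 3 polypeptide chains wound around each other. The fibrillar collagens, chiefly types I, III and V, form the tensile fibers of connective tissue, type VI collagen forms beaded filaments between fibers and cells, and type IV collagen forms the network of basement membranes under epithelia and around vessels. Small proteoglycans such as decorin and lumican regulate fiber assembly, and lysyl oxidase cross-links the fibers. Glycoproteins such as fibronectin, tenascin C, periostin and Sparc strengthen or weaken the attachment of cells to the matrix. In carcinomas the fibrillar collagens are made mainly by fibroblasts, and a solid tumor sample holds both carcinoma and stroma. In such bulk samples, fewer cells of a type and less RNA per cell cannot be told apart.

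The 16 arrays had median intensities between 75 and 85.5 and were correlated at 0.90 to 0.969 over 120 pairs. Of the 47 genes, 9 were dim, with a mean under the 25th percentile of all values (24.3): Col2a1, Col4a4, Col9a2, Col11a2, Col12a1, Col17a1, Col19a1, Col22a1 and Col26a1. The other 38 were above it. The summed intensity of 10 lung epithelial tumor markers lay between 10523 and 20017 in the metastases and between 22467 and 27640 in the primary tumors, without overlap, and the lowest 3 sums (10523 to 13143) were those of the metastases of mouse 3. These are sums of linear intensities, in which bright markers such as surfactant protein C (Sftpc, values below) weigh most. In the matched comparison below, all 10 markers were lower in the metastases, with a median log2 difference of −1.03. The part of the epithelial marker difference in the matrix results was not tested.

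Promoters are shown first for genes with the most even difference: 7 members (Col1a2, Col3a1, Col5a1, Col5a3, Fbln2, Sparc and Tnc) were higher in each of the 9 metastases than in the primary tumor of the same mouse. The windows run 250 bases before to 50 bases after the annotated start of the gene (RefSeq, GRCm38.p6), and 34 of the 47 members had one. The windows of 4 of the 7 are printed 5′ to 3′ on the strand of the gene: Col1a2 at chr6:4505368-4505667 on the plus strand, Col3a1 at chr1:45311288-45311587 on the plus strand, Fbln2 at chr6:91212514-91212813 on the plus strand and Tnc at chr4:64046966-64047265 on the minus strand. Capitals mark 4 short motifs on either strand: the CCAAT box (CCAAT, or ATTGG when reversed), the TATA box (TATAAA, or TTTATA when reversed), the GC box (GGGCGG, or CCGCCC when reversed) and the AP-1 site (TGANTCA).
Col1a2: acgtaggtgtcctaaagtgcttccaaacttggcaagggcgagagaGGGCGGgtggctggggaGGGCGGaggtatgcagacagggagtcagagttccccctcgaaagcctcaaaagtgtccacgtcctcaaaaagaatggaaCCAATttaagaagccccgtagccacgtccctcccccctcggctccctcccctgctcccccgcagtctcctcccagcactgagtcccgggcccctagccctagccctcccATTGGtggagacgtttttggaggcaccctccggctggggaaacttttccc
Col3a1: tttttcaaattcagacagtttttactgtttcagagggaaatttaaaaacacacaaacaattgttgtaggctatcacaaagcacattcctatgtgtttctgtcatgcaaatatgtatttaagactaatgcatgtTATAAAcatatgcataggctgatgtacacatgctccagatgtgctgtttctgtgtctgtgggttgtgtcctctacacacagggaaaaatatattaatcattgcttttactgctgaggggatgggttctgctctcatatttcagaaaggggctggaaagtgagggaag
Fbln2: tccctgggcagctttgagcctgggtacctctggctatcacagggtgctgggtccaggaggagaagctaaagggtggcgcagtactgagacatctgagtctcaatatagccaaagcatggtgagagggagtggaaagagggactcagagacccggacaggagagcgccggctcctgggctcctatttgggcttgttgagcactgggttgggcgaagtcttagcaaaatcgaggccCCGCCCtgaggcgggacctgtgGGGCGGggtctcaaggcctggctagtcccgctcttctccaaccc
Tnc: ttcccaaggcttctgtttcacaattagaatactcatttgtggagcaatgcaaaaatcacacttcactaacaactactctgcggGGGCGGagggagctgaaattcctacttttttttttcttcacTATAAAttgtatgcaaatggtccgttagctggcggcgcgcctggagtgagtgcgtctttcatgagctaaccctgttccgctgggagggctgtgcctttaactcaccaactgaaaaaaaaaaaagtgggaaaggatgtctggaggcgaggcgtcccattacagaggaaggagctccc
A CCAAT box was present in 2 of the 7 windows (Col1a2 and Col5a3), against 37.4% of all 32851 windows of that length. A TATA box was present in 2 of 7 (Col3a1 and Tnc), against 13.6% of all windows, and a GC box in 5 of 7 (all but Col3a1 and Sparc), against 35.7%. An AP-1 site was present in none of the 7, against 7.81% of all windows. No motif was shared by all 7, and a match is a description of the letters and not a bound site.

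The second pair shown is Col4a1 and Col4a2, the 2 most widely used chains of type IV collagen. They were chosen because they are neighbors transcribed in opposite directions, and yet the probe sets used gave unlike ratios below. The other probe set of Col4a1 was nearer to Col4a2 in the matched comparison. The Col4a1 window is chr8:11312777-11313076 on the minus strand and the Col4a2 window chr8:11312555-11312854 on the plus strand. Their start sites are 21 bases apart and the windows share 78 bases, so the last 78 bases of each sequence are the reverse complement of part of the other.
Col4a1: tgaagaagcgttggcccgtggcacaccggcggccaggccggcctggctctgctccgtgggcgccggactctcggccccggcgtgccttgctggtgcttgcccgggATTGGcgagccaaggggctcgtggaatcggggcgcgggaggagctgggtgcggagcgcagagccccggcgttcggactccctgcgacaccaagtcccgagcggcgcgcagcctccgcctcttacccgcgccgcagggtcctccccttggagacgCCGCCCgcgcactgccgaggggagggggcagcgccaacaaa
Col4a2: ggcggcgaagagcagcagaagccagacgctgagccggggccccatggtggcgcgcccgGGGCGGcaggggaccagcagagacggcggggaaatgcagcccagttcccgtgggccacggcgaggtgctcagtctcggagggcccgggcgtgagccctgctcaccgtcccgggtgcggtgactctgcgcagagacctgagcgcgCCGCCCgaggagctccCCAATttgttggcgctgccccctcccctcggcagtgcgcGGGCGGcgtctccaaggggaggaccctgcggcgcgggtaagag
Each window held 1 CCAAT box, on the reverse strand of the Col4a1 window and the forward strand of the Col4a2 window. GC boxes numbered 1 in the Col4a1 window and 3 in the Col4a2 window, and neither held a TATA box or an AP-1 site. The GC box of the Col4a1 window lies in the shared bases and is the same site as the last of the 3 in the Col4a2 window.

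To ask how the matrix of a metastasis differed from that of its own primary tumor, the 9 metastases were compared with the 4 matched primary tumors, with the mouse as a block. Fibrillar collagen genes were higher in the metastases, basement membrane collagen genes were slightly lower or near 0, and the proteoglycan lumican and the glycoprotein fibulin 2 had the largest differences among the 47 members. Of the 47 members, 31 were higher and 16 lower in the metastases, with a median log2 difference of 0.15, against −0.02 over all probe sets. None passed an adjusted p of 0.05 in limma (background 0.354% of all probe sets), and 8 members were higher and 0 lower at an unadjusted p under 0.05 (background 4.28% higher and 7.10% lower). At an unadjusted p under 0.01, 2 members were higher (Col3a1 and Fbln2) and 0 lower, against 1.14% and 2.84% of all probe sets. The 7 members that were higher in 9 of 9 metastases compare with 1.81% of all probe sets, and 0 members were lower in 9 of 9, against 3.60%. For no member did the 9 metastases lie wholly apart from the 4 matched primary tumors, as they did for 1.01% of all probe sets. In a fit without the mouse block, 0 members passed p under 0.01 (background 2.59% in either direction). The metastases of a mouse share a primary tumor, and the p-values measure the spread of the 13 tumors left after the level of each mouse is removed. With 1 mean ratio per mouse in place of the 13 tumors, 5 members were higher at p under 0.01 in limma (Col1a2, Col3a1, Col5a1, Fbln2 and Lum). The share of all probe sets in that fit was 0.619%. The count of 2 became 0 without the lymph node metastasis of mouse 4 or the primary tumor of mouse 3 or 4, 1 without the body wall metastasis of mouse 3, 4 without the heart metastasis of mouse 3 and 5 without the inguinal metastasis of mouse 1.

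**Figure D1:**
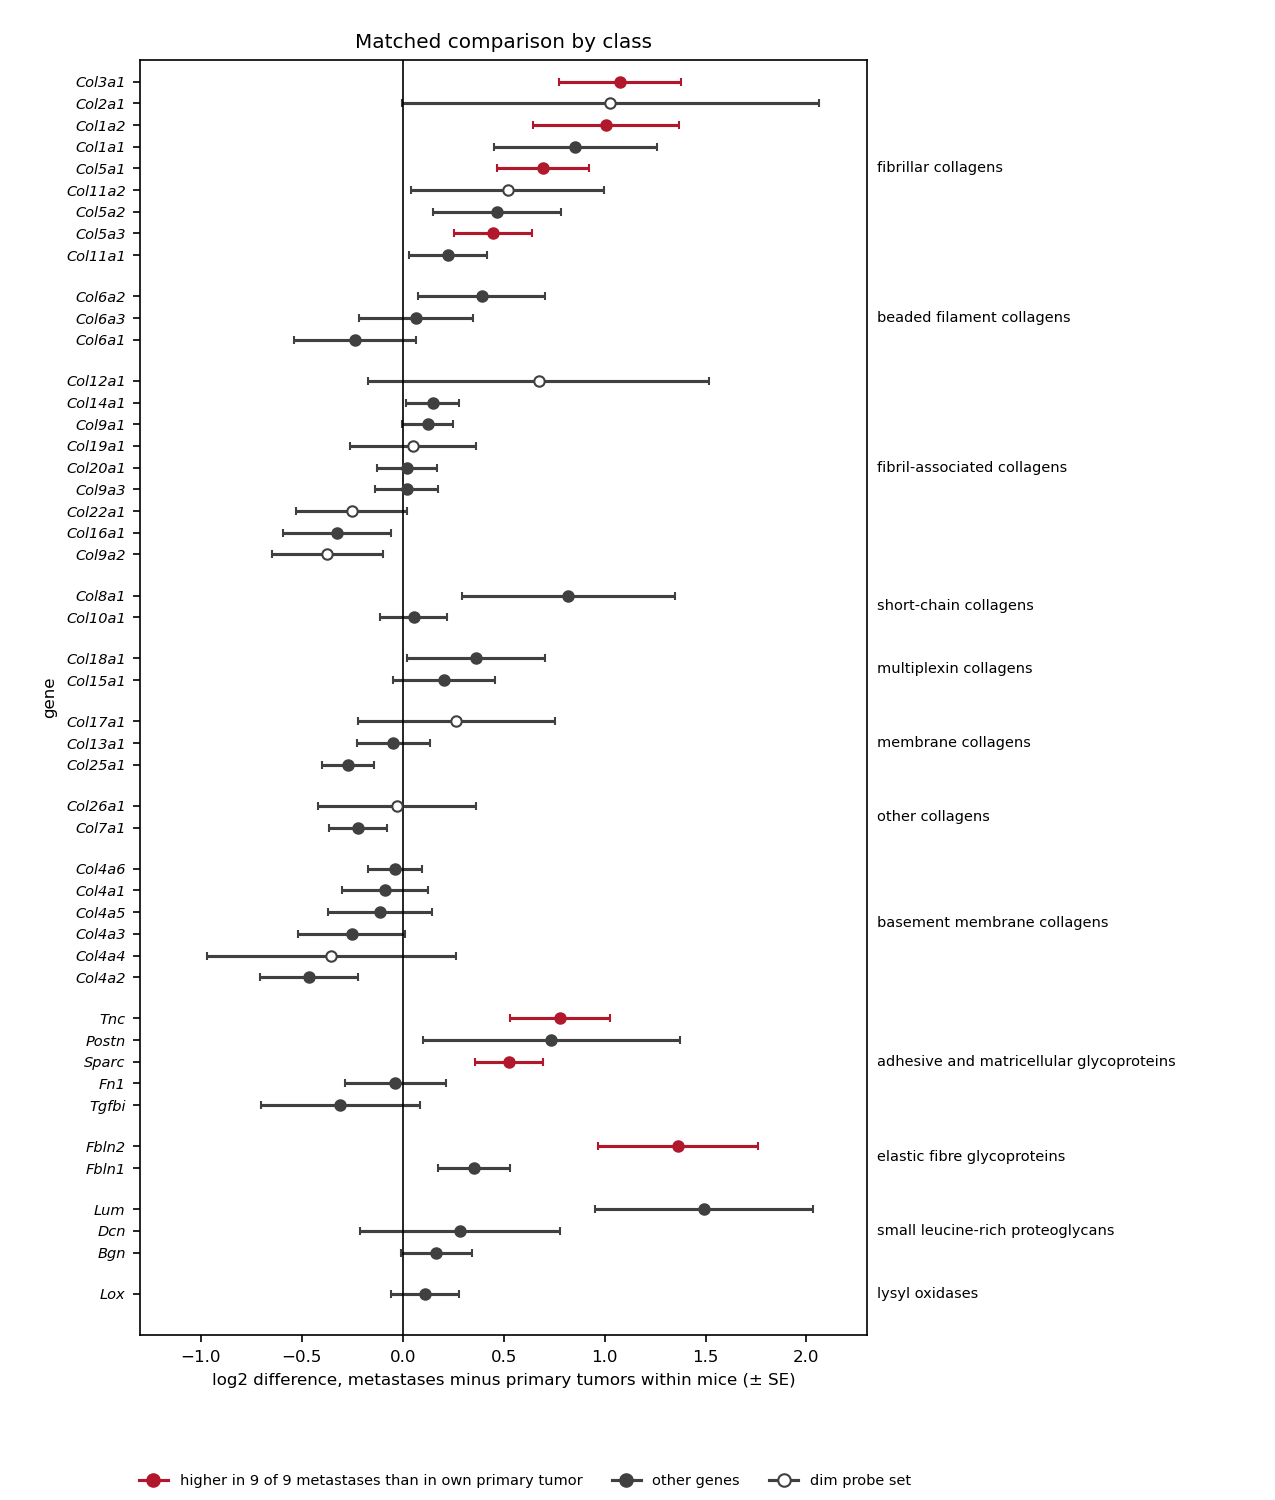
Log2 difference of the 9 metastases minus the 4 matched primary tumors within mice, with its standard error, for each of the 47 genes, grouped by class. All 9 fibrillar collagens lie to the right of 0 and all 6 basement membrane collagens to the left of it; red marks the 7 genes higher in 9 of 9 metastases than in their own primary tumor, and open circles the 9 dim probe sets.

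Among the fibrillar collagens, 9 of 9 had a positive difference, with a median of 0.69, and the class median was positive in all 9 metastases, at 0.13 in the pleura metastasis of mouse 4 to 2.11 in the liver metastasis of mouse 1. Of the 9, 2 were dim (Col2a1 and Col11a2). Leaving out each tumor in turn kept the class median between 0.49 and 0.81, with 8 or 9 of the 9 higher. Col3a1, the type III collagen chain of pliable tissues, was measured at 1545, 652 and 2392 in the body wall, inguinal and liver metastases of mouse 1, 1011 in the liver metastasis of mouse 2, 5016, 5013 and 5023 in the body wall, heart and lymph node metastases of mouse 3, and 2058 in the lymph node and 1218 in the pleura of mouse 4. The primary tumors of mice 1 to 4 were at 532, 601, 2080 and 905. Each metastasis was above its own primary tumor, but the groups overlapped, since the primary tumor of mouse 3 was above 5 of the 6 metastases of the other mice. The log2 difference of Col3a1 was 1.07 ± 0.30 (SE), with an unadjusted p of 0.0052 and an adjusted p of 0.20 in limma. Its 2 probe sets gave 1.05 and 1.07.

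The 2 chains of type I collagen, the main protein of scar and bone, were less even. Col1a2 was higher in 9 of 9 metastases, at 666 to 6430 (median 1210) in the metastases against 601, 656, 1498 and 697 in the primary tumors of mice 1 to 4, a difference of 1.01 ± 0.36 (adjusted p = 0.32). Col1a1 was at 713, 598 and 2311 in the body wall, inguinal and liver metastases of mouse 1, 1249 in the liver metastasis of mouse 2, 4968, 2067 and 2916 in the body wall, heart and lymph node metastases of mouse 3, and 549 in the lymph node and 457 in the pleura of mouse 4, against 533, 444, 1252 and 570 in the primary tumors of mice 1 to 4. It was higher in 7 of 9, and both metastases of mouse 4 were below their primary tumor. Its difference was 0.85 ± 0.40 (adjusted p = 0.47 in limma). The other probe set of Col1a1 gave 0.80 and was higher in 8 of 9, so the count of 7 depends on the probe set.

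Type V collagen is a minor component that sets the diameter of type I fibers. Col5a1 had a difference of 0.69 ± 0.23 and Col5a3 of 0.45 ± 0.19, both higher in 9 of 9, and Col5a2 of 0.47 ± 0.32, higher in 7 of 9. Adjusted p-values were 0.27, 0.41 and 0.64. One of the 3 probe sets of Col5a1 gave −0.04 where the highest gave 0.74. Col5a3 lay between 112 and 284 in the metastases (median 131) against 90.9, 84.8, 118 and 118 in the 4 matched primary tumors, so that the lowest metastases overlapped the highest primary tumors. The cartilage fibrillar collagens had differences near the size of their errors: Col11a1 had a difference of 0.22 ± 0.19, Col11a2 of 0.52 ± 0.48 and Col2a1 of 1.03 ± 1.03. Col2a1 stood at 135 in the inguinal metastasis of mouse 1 and at no more than 25.8 in the other 15 tumors, and was higher in 4 of 9.

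**Figure D2:**
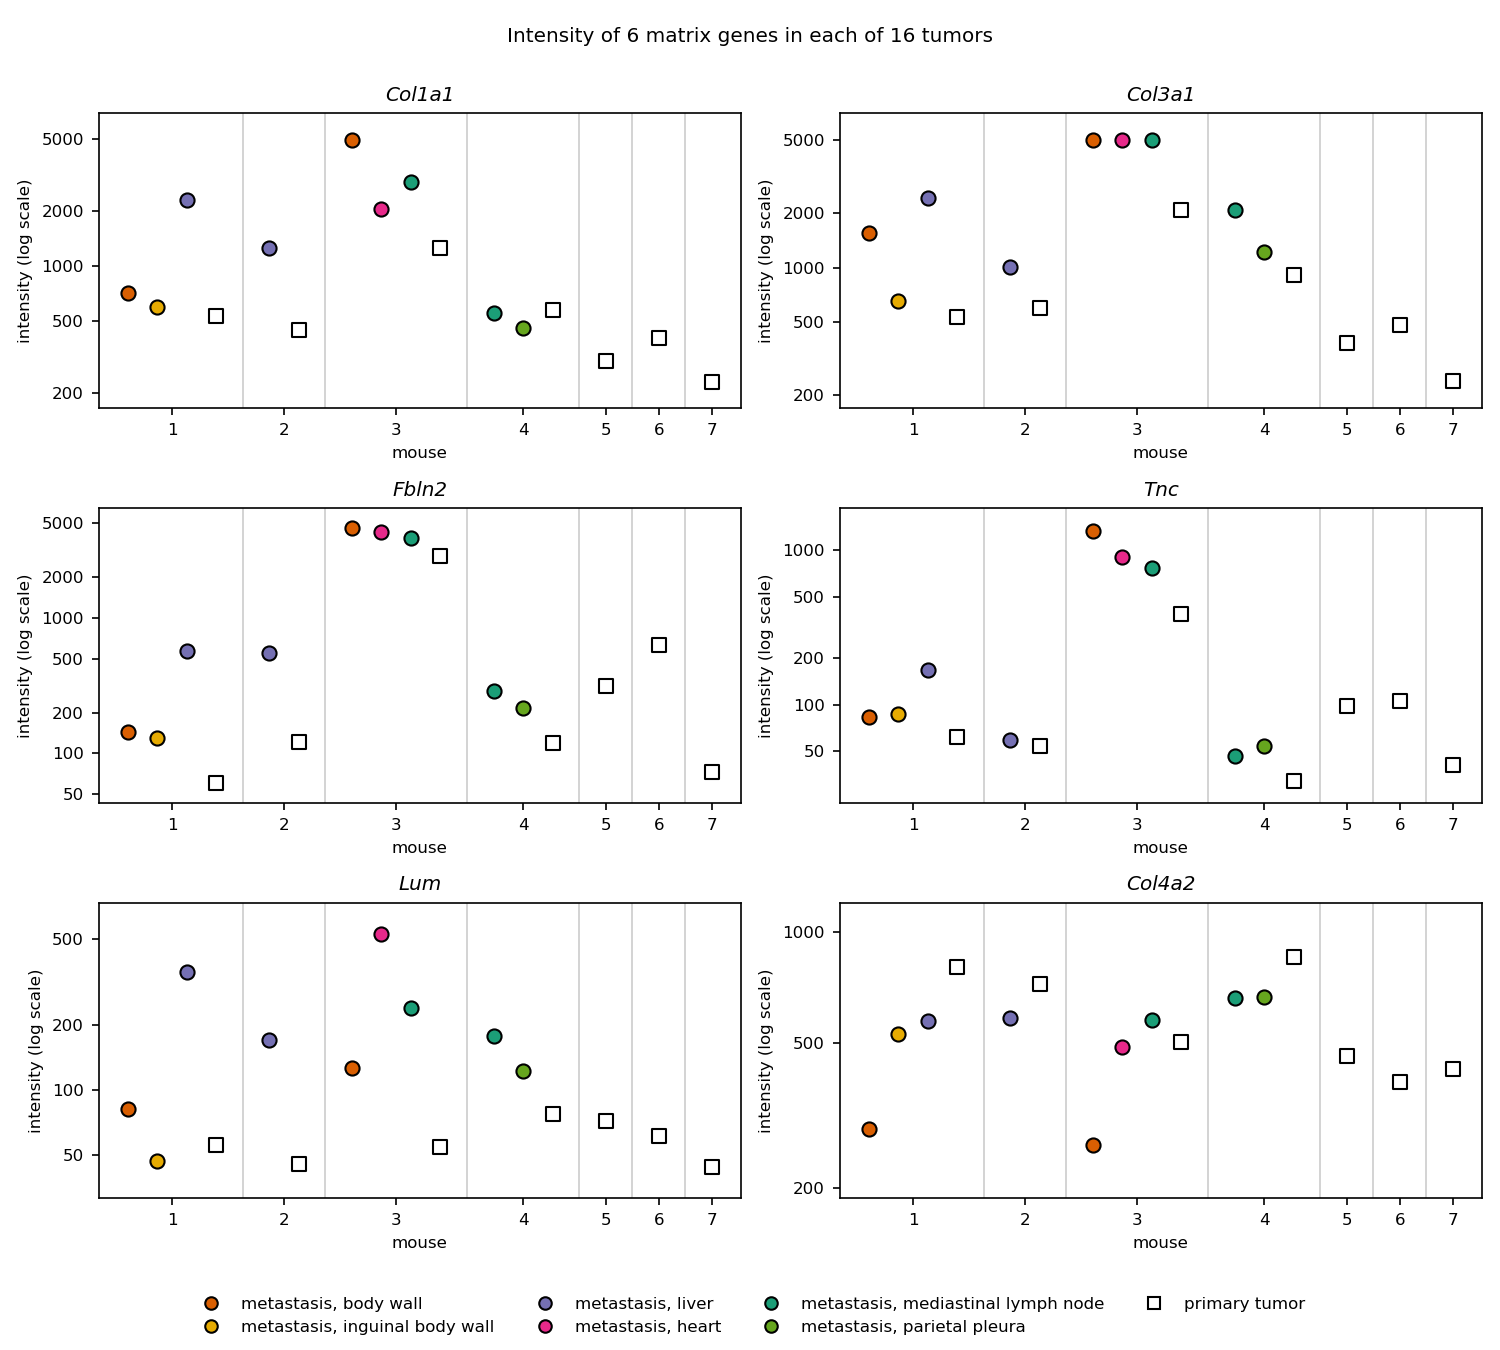
Intensity on a log scale in each of the 16 tumors for 6 genes, with mice 1 to 7 from left to right, metastases as colored circles and the primary tumor of the same mouse as a white square to their right. Col3a1, Fbln2 and Tnc lie above the own primary tumor in 9 of 9 metastases, and all 4 tumors of mouse 3 lie above all others for Fbln2 and Tnc.

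The remaining interstitial collagens were less uniform in sign. The 3 type VI chains gave −0.24 ± 0.30 for Col6a1, 0.39 ± 0.32 for Col6a2 and 0.06 ± 0.28 for Col6a3. Col6a1 ranged between 257 and 1532 in the metastases (median 621) against 331, 758, 710 and 841 in the 4 matched primary tumors. All 3 type VI chains were lower than the own primary tumor in the liver metastasis of mouse 2 (median log2 ratio −0.94) and higher in the body wall metastasis of mouse 3 (median 1.4). The 9 fibril-associated collagens, which coat fibers and link them to other matrix, split 6 higher and 3 lower with a median of 0.02, and 4 of them were dim. Col9a1, a cartilage chain, was at 124 to 226 in the metastases (median 184) against 149, 178, 171 and 163 in the primary tumors of mice 1 to 4 (0.12 ± 0.13, adjusted p = 0.78). Col14a1 was between 114 and 182 in the metastases, with a difference of 0.15 ± 0.13.

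Col8a1, a short-chain collagen of vessel walls and corneal membrane, was at 87.6, 99.0 and 113 in the body wall, inguinal and liver metastases of mouse 1, 40.7 in the liver metastasis of mouse 2, 1279, 247 and 171 in the body wall, heart and lymph node metastases of mouse 3, and 63.4 in the lymph node and 161 in the pleura of mouse 4. The primary tumors of mice 1 to 4 were at 75.5, 42.8, 97.3 and 62.8. It was higher in 8 of 9 metastases, and the body wall metastasis of mouse 3 was 5.18 times the next highest tumor. The difference of 0.82 ± 0.53 (adjusted p = 0.62 in limma) was 0.37 without the primary tumor of mouse 3. The other probe set of Col8a1 gave 0.085 and was higher in 7 of 9. Col18a1, the precursor of the angiogenesis inhibitor endostatin, differed in sign between mice: the 3 metastases of mouse 1 were at 521, 674 and 682 against 1364 in its primary tumor, while the 6 metastases of mice 2 to 4 (844 to 1960) were each above their own primary tumors (1001, 461 and 820). The difference in limma was 0.95 without the primary tumor of mouse 1 (unadjusted p = 0.0037, adjusted p = 0.33) and 0.055 without that of mouse 3, against 0.36 ± 0.34 with all 4 mice. Col25a1, a membrane collagen of neurons, had a difference of −0.27 ± 0.13 and lay at 44.9 to 68.9 in the metastases against 62.4 to 68.6 in the 4 primary tumors. Col7a1, the anchoring fibril collagen that holds epithelium to stroma, was at 241 to 434 in the metastases (median 303) against 327, 358, 371 and 410 in the 4 matched primary tumors, a difference of −0.22 ± 0.14.

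By the brightest probe sets, basement membrane collagens ran the other way. All 6 type IV genes had a negative difference, with a median of −0.18, and 0 of 6 passed an unadjusted p of 0.05 in limma. The other probe sets of Col4a5 and Col4a6 had the opposite sign, at 0.03 and 0.29. Under other settings of the scaling or the floor 1 of the 6 could turn positive, and without the liver metastasis or the primary tumor of mouse 2, 3 of 6 were positive, with a median of −0.05. Col4a1 was at 1338, 1758 and 1644 in the body wall, inguinal and liver metastases of mouse 1, 1799 in the liver metastasis of mouse 2, 1477, 1662 and 3201 in the body wall, heart and lymph node metastases of mouse 3, and 3577 in the lymph node and 3497 in the pleura of mouse 4, against 2061, 1879, 2321 and 2706 in the primary tumors of mice 1 to 4 (−0.09 ± 0.21, adjusted p = 0.92). Col4a2 was at 290, 527 and 574 in the same metastases of mouse 1, 584 in the liver metastasis of mouse 2, 263, 486 and 575 in those of mouse 3, and 661 and 666 in those of mouse 4, against 802, 722, 503 and 858 in the primary tumors of mice 1 to 4. It was lower in 8 of 9 metastases, with a difference of −0.46 ± 0.24 (unadjusted p = 0.087, adjusted p = 0.53). By the probe sets used, the 2 neighbors parted in mouse 4. There Col4a1 was above the primary tumor in both metastases (mean log2 ratio 0.39) and Col4a2 below it in both (−0.37). The other probe set of Col4a1 gave a matched difference of −0.33 and was higher in 2 of 9 metastases, nearer to Col4a2. The 2 metastases of mouse 4 were the ones in which 5 of 6 type IV genes were above the own primary tumor, with class medians of 0.51 and 0.37, whereas the other 7 metastases had medians between −0.47 and 0.07. The 10 endothelial markers, which come from vessels that also carry type IV collagen, were all lower by the fit (median −0.32), and their sum was 831 to 1651 in the metastases and 1182 to 1971 in the primary tumors. The part of vessels in the type IV values was not tested.

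**Figure D3:**
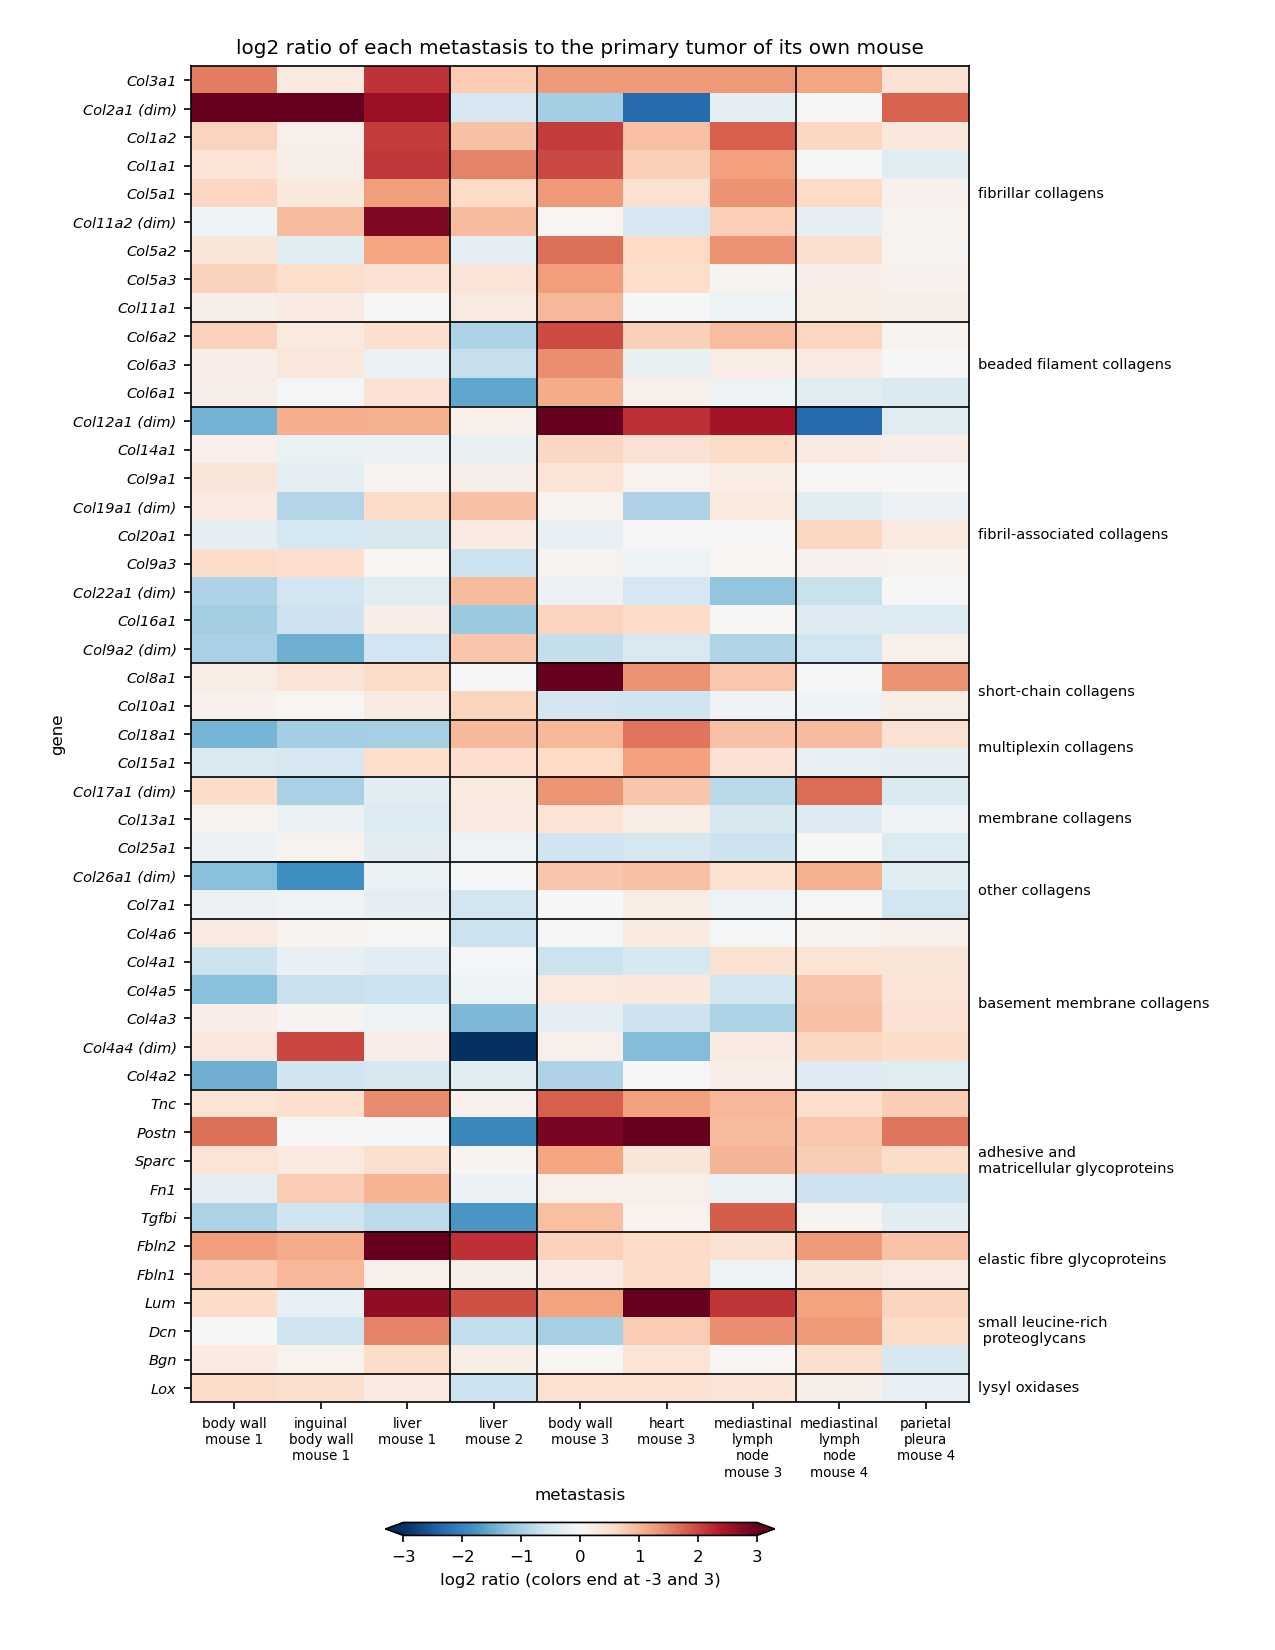
Log2 ratio of each of the 9 metastases (columns, grouped by mouse) to the primary tumor of its own mouse for the 47 genes (rows, grouped by class), with red for higher and blue for lower in the metastasis. The fibrillar block is mostly red, strongest in the liver metastasis of mouse 1, and the type IV block is red mainly in the 2 metastases of mouse 4.

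Of the glycoproteins that act on the attachment of cells to the matrix, Sparc, a collagen-binding protein, was higher in 9 of 9 metastases. It stood at 2438, 2226 and 2556 in the body wall, inguinal and liver metastases of mouse 1, 1845 in the liver metastasis of mouse 2, 5017, 2845 and 4492 in the body wall, heart and lymph node metastases of mouse 3, and 3500 in the lymph node and 3078 in the pleura of mouse 4. The primary tumors of mice 1 to 4 were at 1832, 1731, 2212 and 2112, and the difference was 0.53 ± 0.17 (unadjusted p = 0.011, adjusted p = 0.26). Tnc, an anti-adhesive protein of wound and tumor stroma singled out after its values were seen, was also higher in 9 of 9 (0.78 ± 0.25, unadjusted p = 0.010, adjusted p = 0.25). Postn, periostin, was at 425, 133 and 130 in the body wall, inguinal and liver metastases of mouse 1, 54.6 in the liver metastasis of mouse 2, 1466, 1772 and 390 in the body wall, heart and lymph node metastases of mouse 3, and 281 in the lymph node and 489 in the pleura of mouse 4, against 135, 209, 203 and 160 in the primary tumors of mice 1 to 4. Both liver metastases and the inguinal metastasis were below their primary tumors, and the other 6 were above, for a difference of 0.74 ± 0.64. That value was 0.12 without the primary tumor of mouse 3 and 1.35 without the liver metastasis or the primary tumor of mouse 2. Fn1, fibronectin, had no settled direction: it was higher in 4 of 9, its brightest probe set gave −0.04 ± 0.25 and its other probe set gave 0.56. Tgfbi, an integrin-binding protein induced by TGF-beta, was higher in 4 of 9 (−0.31 ± 0.39), at 90.9 to 1398 in the metastases (median 201) against 233, 303, 396 and 250 in the 4 matched primary tumors.

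Fbln2, fibulin 2, a glycoprotein of elastic fibers and basement membranes, had the second largest difference of the members above the dim limit. It was at 143, 130 and 569 in the body wall, inguinal and liver metastases of mouse 1, 552 in the liver metastasis of mouse 2, 4630, 4288 and 3875 in the body wall, heart and lymph node metastases of mouse 3, and 287 in the lymph node and 214 in the pleura of mouse 4. The primary tumors of mice 1 to 4 were at 60.0, 120, 2857 and 119. Each metastasis was above its own primary tumor, and the tumors of mouse 3 were far above those of the other mice in both tissues. The difference was 1.36 ± 0.40 (unadjusted p = 0.0063, adjusted p = 0.21). Fbln1, fibulin 1, was at 145 to 273 in the metastases (median 192) against 138, 150, 160 and 159 in the 4 matched primary tumors, higher in 8 of 9 (0.35 ± 0.18, adjusted p = 0.51).

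The largest difference was that of Lum, lumican, a small proteoglycan of collagen fibers. It was at 81.6, 46.8 and 350 in the body wall, inguinal and liver metastases of mouse 1, 171 in the liver metastasis of mouse 2, 126, 526 and 239 in the body wall, heart and lymph node metastases of mouse 3, and 177 in the lymph node and 122 in the pleura of mouse 4. The primary tumors of mice 1 to 4 were at 55.5, 45.3, 54.3 and 77.2. All metastases but the inguinal one were above their own primary tumor, and 8 of 9 were above all 4 primary tumors, for a difference of 1.49 ± 0.54 (unadjusted p = 0.020, adjusted p = 0.32). Dcn, decorin, was split between sites, with a difference of 0.28 ± 0.50 and 5 of 9 metastases higher. Leaving out single tumors gave 0.073 (without the primary tumor of mouse 4) to 0.52 (without the liver metastasis or the primary tumor of mouse 2). Bgn, biglycan, was between 1227 and 4398 in the metastases (median 2354) against 1504, 2250, 3311 and 1699 in the 4 matched primary tumors, higher in 8 of 9 by a small amount (0.17 ± 0.18). Lox, lysyl oxidase, was at 201 to 358 in the metastases (median 289) against 206, 328, 261 and 237 in the 4 primary tumors (0.11 ± 0.17, higher in 7 of 9).

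Adding the 3 primary tumors of mice 5 to 7, with the mouse as a random block, placed 34 of the 47 members higher and 13 lower in the metastases (median 0.17), of which 0 passed an adjusted p of 0.05 (background 1.24%), and 10 were higher and 1 lower at an unadjusted p under 0.05 (background 5.93% and 6.46%). At an unadjusted p under 0.01, 6 members were higher and 0 lower, against 2.07% and 2.93% of all probe sets: Col1a1 (1.28 ± 0.43), Col3a1 (1.6 ± 0.41), Col5a3 (0.49 ± 0.16), Fbln1 (0.43 ± 0.14), Lum (1.5 ± 0.39) and Sparc (0.53 ± 0.17). Col3a1 and Lum came nearest to the threshold, with adjusted p-values of 0.071 and 0.075, and both passed it when dim probe sets were left out (0.0366 and 0.0424). The added primary tumors of mice 5, 6 and 7 were low for Col3a1 (386, 482 and 238) and for Col1a1 (300, 403 and 231), and their Lum values (71.6, 61.1 and 44) were no higher than the highest of the matched primary tumors (77.2). No member separated all 9 metastases from all 7 primary tumors, as 0.376% of all probe sets did. The result rests in part on single tumors, since the count at p under 0.01 was 2 without the primary tumor of mouse 5, of mouse 1 or of mouse 2, and 3 without the primary tumor of mouse 7, the body wall metastasis of mouse 3 or the heart metastasis of mouse 3.

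Some matrix genes differed between mice in both tissues. For 6 members, singled out after their values were seen, all 4 tumors of mouse 3, its primary tumor included, were above the other 12 tumors: Col5a1, Col5a2, Col16a1, Fbln2, Tnc and, by a small margin, Fn1 (lowest 4325 in mouse 3, highest 4309 elsewhere). That is 6 of 47, against 2.46% of all probe sets. Tnc was at 1345, 912 and 764 in the body wall, heart and lymph node metastases and 386 in the primary tumor of mouse 3, against at most 167 in the other 12 tumors. Fbln2 was at 2857 or more in mouse 3, against at most 625 elsewhere. Col5a2, at 1945, 944 and 1586 in the metastases and 620 in the primary tumor of mouse 3, did not exceed 538 elsewhere. The primary tumor of mouse 3 was the highest of the 7 primary tumors for 15 of the 47 members, 7 of the 9 fibrillar collagens among them, against 21.3% of all probe sets.

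Within mouse 3 the body wall metastasis was the highest of the 16 tumors for 18 of 47 members, 5 of 9 fibrillar collagens included, against 5.57% of all probe sets. Besides Col8a1, examples were Col6a3 (958, next highest 447), Col1a1 (4968, next 2916) and Col1a2 (6430, next 5230). The summed intensity of 11 fibroblast markers was also highest in the metastases of mouse 3, at 1532 in the body wall, 1270 in the heart and 1571 in the lymph node, against 719 to 1119 in the other 6 metastases and 818 to 940 in the 7 primary tumors. Smooth muscle and myofibroblast markers summed to 3610 in the body wall metastasis of mouse 3, against 1080 to 2818 in the other 8 metastases. Of the epithelial markers, Sftpc, surfactant protein C of alveolar type II cells, was at 95, 87.5 and 123 in the body wall, heart and lymph node metastases of mouse 3, against 1096 to 6311 in the other metastases and 4802 to 10322 in the primary tumors. The part of stromal or carcinoma cell content in the matrix values was not tested. Without the primary tumor of mouse 3, which takes its metastases out of the fit, the matched comparison had 0 members at p under 0.01, against 2 with it.

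Site was compared among the metastases within the same fit. In the 3 body wall metastases against the other 6, the small proteoglycans decorin and lumican were lower, Col4a2 was lower and Col6a3 was higher. No member passed an adjusted p of 0.05, nor did any probe set (0.00%), and at an unadjusted p under 0.05, 3 members were higher and 3 lower (background 3.18% and 1.57%). At p under 0.01, 1 member was higher and 3 were lower, against 0.473% and 0.301% of all probe sets. Dcn was at 264, 175 and 326 in the body wall and inguinal metastases of mouse 1 and the body wall metastasis of mouse 3, against 738 and 241 in the liver metastases of mice 1 and 2, 1113 and 1731 in the heart and lymph node metastases of mouse 3, and 1494 in the lymph node and 903 in the pleura of mouse 4. All 3 body wall values were below those of 5 of the other 6 metastases, and the liver metastasis of mouse 2 lay among them. The difference was −1.66 ± 0.42 (unadjusted p = 0.0031, adjusted p = 0.95), and within mice it was −1.78 in mouse 1 and −2.09 in mouse 3. For Lum it was −1.78 ± 0.46 (unadjusted p = 0.0038, adjusted p = 0.95), with −2.50 in mouse 1 and −1.49 in mouse 3. Col4a2 (−0.77 ± 0.22) gave −0.55 and −1.01 in the same mice, and Col6a3 (0.88 ± 0.26) gave 0.46 and 1.39. In mouse 1 the only other metastasis was that of the liver. A low body wall value and a high liver value cannot be told apart in that mouse. The Col6a3 difference was 0.44 without the body wall metastasis of mouse 3, 0.47 without the primary tumor of mouse 3 and 1.44 without that of mouse 1. Type I collagen had opposite signs in the 2 mice, at −1.82 for Col1a1 in mouse 1 and 1.02 in mouse 3, with a joint value of −0.26 ± 0.55. Leaving out the liver metastasis of mouse 1 left 0 members at p under 0.01, and leaving out the body wall metastasis of mouse 3 or the inguinal metastasis of mouse 1 left 1. The count was 2 without the lymph node metastasis of mouse 3, the heart metastasis of mouse 3, the pleura metastasis of mouse 4, the liver metastasis of mouse 2 or the primary tumor of mouse 2, 3 or 4. Markers of other cells also differed in this contrast: 8 of 10 endothelial markers were lower (median −0.12), with sums of 952 to 1088 in the body wall metastases and 831 to 1651 in the other 6. Of the smooth muscle markers, 6 of 8 were higher (median 0.36), with sums of 1517 to 3610 in the body wall metastases and 1080 to 2818 in the others. Of the adipocyte markers, 4 of 6 were higher (median 0.55), with sums of 224 to 2487 in the body wall metastases and 209 to 1627 in the others, and 8 of 10 lung epithelial markers were higher (median 0.36), with sums of 13143 to 18773 in the body wall metastases and 10523 to 20017 in the others. Their part in the matrix values was not tested.

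In the 2 liver metastases against the other 7, Fbln2 was higher, with log2 ratios to the own primary tumor of 3.25 in mouse 1 and 2.20 in mouse 2, against 0.44 to 1.27 in the other metastases. The difference was 1.85 ± 0.26 (unadjusted p = 6.1e-05, adjusted p = 0.12). No member passed the adjusted threshold (background 0.0354%). At an unadjusted p under 0.05, 5 members were higher and 1 lower (background 2.97% and 4.00%), and at p under 0.01, 2 were higher and 0 lower (0.694% and 0.897%). The second was the dim Col11a2 (1.89 ± 0.51), whose difference was 0 when values under 24.3 were raised to that value. Fbln2 passed with an adjusted p of 0.0499 when dim probe sets were left out and of 0.0344 without the liver metastasis or the primary tumor of mouse 2, and without the mouse block its sign turned (−0.33). The 4 tumors of mouse 3, at 2857 or more, stood above both liver metastases (569 and 552). The count at p under 0.01 was 0 without the primary tumor of mouse 1, 1 without the body wall metastasis of mouse 1 or the primary tumor of mouse 4, and 4 without the primary tumor of mouse 3. Fibrillar collagens stood out in the liver metastasis of mouse 1 (class median 2.11) and less in that of mouse 2 (0.61), while Postn and Tgfbi were below the own primary tumor in both (−0.06 and −1.94 for Postn, −0.79 and −1.74 for Tgfbi, in mice 1 and 2). The 9 hepatocyte markers summed to 9680 and 5133 in the liver metastases of mice 1 and 2, but also to 5971 and 7868 in the body wall and inguinal metastases of mouse 1, against 408 to 2146 in the other 5 metastases and 521 to 1591 in the primary tumors. The part of liver tissue in these values was not tested.

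The 4 thoracic metastases (heart, mediastinal lymph nodes and pleura) were set against the 5 in liver and body wall. The type IV collagens were all higher (6 of 6, median 0.23) and the fibrillar collagens all lower (9 of 9, median −0.49). No member passed p under 0.01 in either direction in limma (background 0.261% and 0.429%), and at an unadjusted p under 0.05, 2 were higher and 2 lower (1.38% and 2.75%). The members past that limit were Col4a2 (0.72 ± 0.31) and Dcn (1.61 ± 0.59), both higher, and Col5a3 (−0.64 ± 0.23) and Col11a1 (−0.60 ± 0.23), both lower. Only mouse 3 held both regions. Within it Col4a1 (0.64), Col4a2 (1.01) and Col4a6 (0.17) were higher in the thoracic metastases. Col4a3 (−0.51), Col4a4 (−0.68) and Col4a5 (−0.42) were lower there. In the fit, other probe sets of Col1a1 (0.13), Col3a1 (0.44) and Col5a3 (0.04, near the floor) were higher. Those of Col1a2, Col5a1, Col5a2 and Col11a1 were lower. Without the mouse block the fibrillar collagens split 5 higher and 4 lower, with a median of 0.08. Median-centring, quantile normalization or a floor at the 25th percentile turned 1 of the 9, and when single tumors were left out 3 to 6 of the 6 type IV genes were higher. In the same contrast 10 of 10 endothelial markers were higher (median 0.55, 2 at p under 0.01), with sums of 1055 to 1651 in the thoracic metastases and 831 to 1088 in the other 5. Hepatocyte markers were lower for 8 of 9 (median −1.41), with sums of 408 to 2146 in the thoracic metastases and 614 to 9680 in the others. The part of vessels and of liver tissue in the collagen values was not tested.

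**Figure D4:**
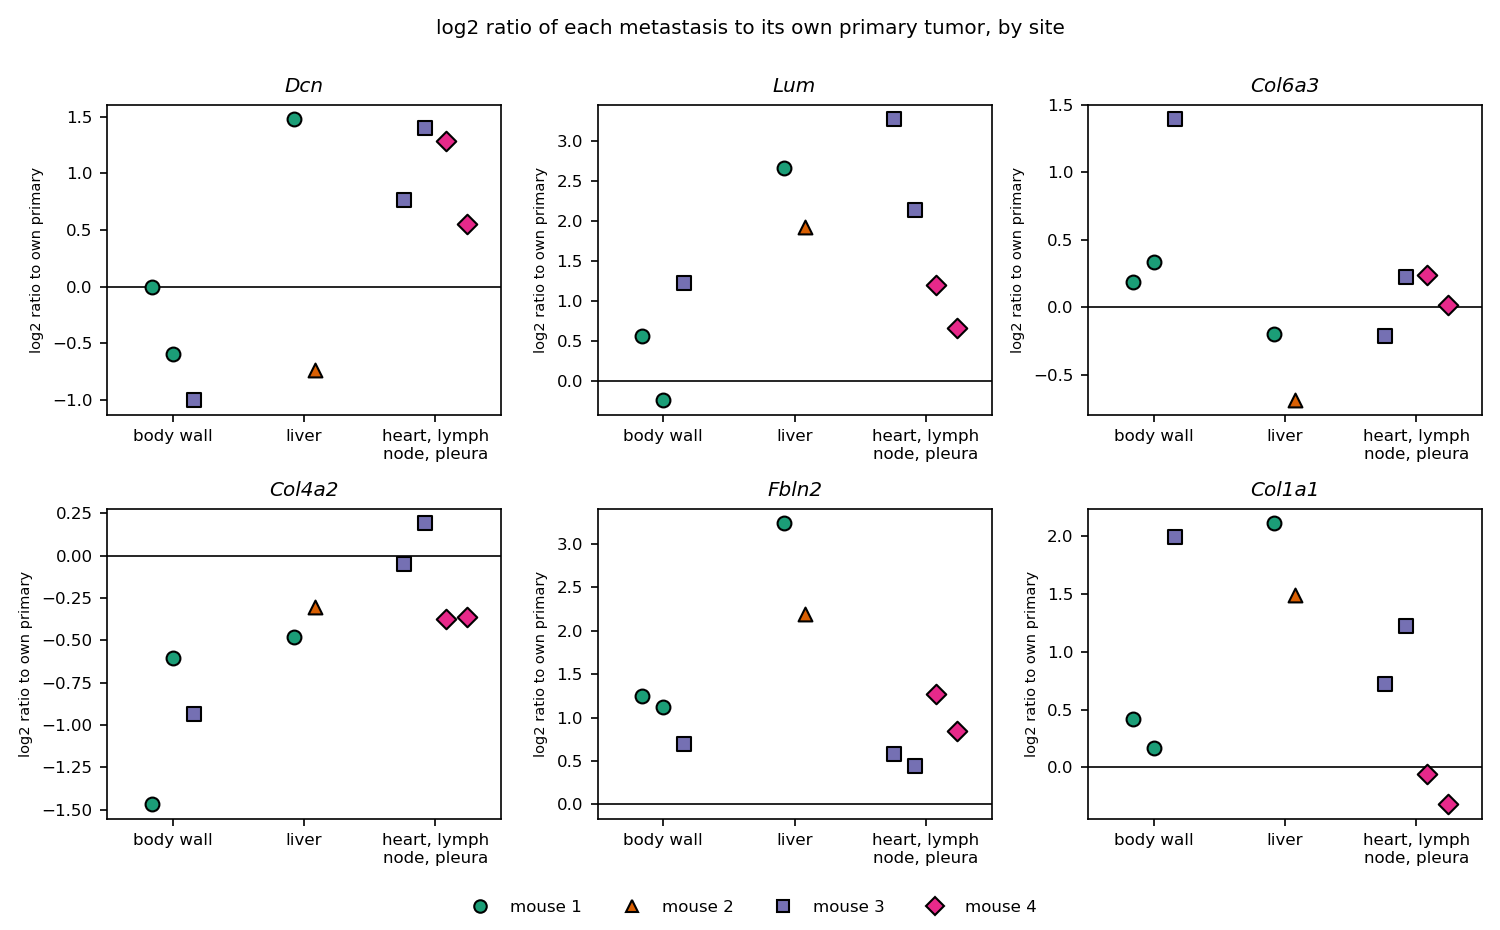
Log2 ratio of each of the 9 metastases to its own primary tumor, by site, for 6 genes; marker shape and color give the mouse. Dcn and Col4a2 are lowest in body wall metastases within mice 1 and 3, Fbln2 is highest in the 2 liver metastases (3.25 and 2.20), and Col1a1 is high in the body wall metastasis of mouse 3 but not in those of mouse 1.

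The enzymes and chaperones that make collagen were followed as a separate list. Of 21 measured genes, 16 were higher and 5 lower in the matched comparison (median 0.17). At an unadjusted p under 0.01 in limma 1 was higher (background 1.14%), namely P3h1, a prolyl 3-hydroxylase. It was at 94.6 to 130 in the 9 metastases against 81.4, 62.6, 84.2 and 81.3 in the 4 matched primary tumors. These did not overlap, as for 1.01% of all probe sets. Its difference was 0.53 ± 0.13 (adjusted p = 0.14), and over all 16 tumors it rose by 0.48 ± 0.11 with an adjusted p of 0.043. Serpinh1, the collagen chaperone Hsp47, had a difference of 0.49 ± 0.21 and was higher in 6 of 9. Of 5 receptors for collagen and its uptake, 1 was higher and 4 lower (median −0.02), with none at p under 0.01.

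Of 27 further matrix genes, 16 were higher and 10 lower. Eln, elastin, fell in the metastases by 1.41 ± 0.21 on the log2 scale (adjusted p = 0.0315), at 132 to 484 in the 9 metastases against 520, 373, 741 and 565 in the primary tumors of mice 1 to 4, and it was lower in 9 of 9. Nid1, nidogen 1, which links laminin to type IV collagen, was higher in 9 of 9 (1.28 ± 0.26, adjusted p = 0.079) and rose by 1.31 ± 0.25 over all 16 tumors (adjusted p = 0.017). Vcan, the large proteoglycan versican, had a difference of 1.02 ± 0.28 (adjusted p = 0.18, higher in 9 of 9), and Sparcl1, a relative of Sparc, one of −1.67 ± 0.39 (adjusted p = 0.13, lower in 9 of 9). Among 11 fibroblast markers, 7 were higher and 4 lower, with a median of only 0.11. The 2 at an unadjusted p under 0.01 in limma (background 1.14% higher) were Thy1 (1.08 ± 0.27) and Fap (1.00 ± 0.26). Both were higher in 9 of 9, with adjusted p-values of 0.15 and 0.16. Over all probe sets, 1.81% were higher and 3.60% lower in 9 of 9.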

How the data were processed

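Tumors were grouped by the tissue and mouse in the labels, and the inguinal metastasis was counted as body wall after the tumor list of the study. The authors scanned 1 array per tumor and computed a model-based intensity per probe set with dChip (PM/MM difference model, invariant set normalization), and these intensities were deposited on a linear scale. Of 22690 probe sets, 64 controls were left out. Of the rest, 20380 had 1 gene symbol in the platform annotation, 691 several and 1555 none. Values were raised to a floor of 1 and taken to log2, and 3.71% of them were at or under that floor. The number of arrays limits the precision.

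Differences were fitted over all 22626 probe sets in limma 3.58.1 (R 4.3.3, lmFit and eBayes) with Benjamini-Hochberg adjustment. The matched comparison used 13 tumors with the mouse as a fixed block, the comparison of all 16 tumors the mouse as a random block (estimated correlation 0.238), and sites were contrasted within the matched model. The pairing came from the mouse in the labels, and the deviations of 6 of 9 metastases from their group mean correlated most with those of their own primary tumor (range −0.00 to 0.40). The fits were tested on simulated data, in which noise was independent between tumors apart from a shift of each mouse common to all probe sets. That test does not cover differences between mice that are particular to single genes. Values after ± are standard errors. The methods' paired t-test was run as an alternative. Values were given for members past an adjusted p of 0.05 or an unadjusted p of 0.01 in any of the 5 fits, for the brightest gene of each class, and for the 5 with the largest difference and the 5 with the widest range of ratios among those not dim. This rule gave 24 of the 47 members. Other genes were singled out after their values were seen. The members and lists were chosen with earlier results of these data known. Tables and figures used Python 3.11.15, pandas 2.3.3, numpy 2.4.6 and matplotlib 3.10.9.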

Additional observations from a re-analysis of the deposited data

Results flagged for a closer look

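Over 48 groups of log2 values of the named members, 4 held a tumor that stood further from the rest than Dixon's limit allows. Chance alone passes that limit in about 1 in 20 groups. The limit was applied on the log2 scale, and the values given here are intensities. Col5a3 was at 284 in the body wall metastasis of mouse 3, with the next of the 9 metastases at 171.98. Col6a3 was at 958 in the same tumor, with the next metastasis at 447. Among the 7 primary tumors, that of mouse 7 was lowest for Fn1, at 525 with the next at 2084, and highest for Tgfbi, at 1158 with the next at 437.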

How the results depend on the processing

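Of 1165 alternative values of single genes, 1131 kept their direction and their side of the threshold, 13 newly passed it, 2 no longer did, 1 moved and 18 changed sign. Of 220 counts of members, 48 moved by more than 1.5 times, or to or from 0, and the others did not. The 220 took in the counts at the adjusted threshold, which were 0 in all 5 fits and mostly stayed there. The share that moved is therefore lower than for the counts at p under 0.01 alone. The count at p under 0.01 against matched primary tumors (2, all higher; 3.98% of all probe sets in either direction) was 1 with a floor at the 25th percentile (4.01%), 5 without dim probe sets (5.62%), 4 with centred arrays (4.08%), 6 with a variance trend and robust prior (4.64%) and 5 with 1 mean ratio per mouse (2.52%). In the methods' paired t-test it was 9 (9.76%), of which Col25a1 was lower, and 4 members passed the adjusted threshold (Col3a1, Col5a1, Sparc and Tnc, against 3.91% of all probe sets). With no mouse block it was 0 (2.59%), Fn1 was 0.070, Fbln2 in liver was −0.33 and the thoracic count was 3 against 0, while the share of all probe sets was 2.66% against 0.689%. Against all primary tumors, 2 members passed the adjusted threshold without dim probe sets (2.67% of those tested) or with the trend (1.75%), namely Col3a1 and Lum. In liver the count of 2 was 1 with the floor at the 25th percentile (1.83%), and 1 member passed the adjusted threshold without dim probe sets (0.0354%) or with the trend (0.0398%). The thoracic count was 1 with the trend (0.588%). Leaving out each tumor in turn gave counts of 0 to 5 (matched), 2 to 7 (all primary tumors), 0 to 5 (body wall), 0 to 4 (liver) and 0 to 1 (thoracic), and adjusted counts of 0 to 2 (all primary tumors; 2 without the inguinal metastasis of mouse 1, 1 without the primary tumor of mouse 3) and 0 to 1 (liver). The thoracic count was 1 without the heart metastasis of mouse 3 or the liver metastasis or primary tumor of mouse 1.

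Members with small differences changed sign when single tumors were left out: Col4a1 ranged over −0.25 to 0.031, Col6a1 −0.47 to 0.066, Col6a3 −0.094 to 0.24, Fn1 −0.25 to 0.16, Lox −0.016 to 0.29 and Tgfbi −0.80 to 0.021. Others kept their sign but moved by over 1.5 times: Bgn 0.083 to 0.27, Col7a1 −0.31 to −0.14, Col9a1 0.078 to 0.17, Col11a2 0.25 to 0.72 (0.81 to 2.46 in liver) and Col25a1 −0.33 to −0.16. Fn1 was also 0.043 with quantile normalization, 0.024 in the methods' paired t-test and 0.56 for its probe set of largest variance. The cause was not tested. The matched contrast rests on 4 mice, the liver contrast on 2 metastases and the thoracic contrast on 1 mouse with both regions. Dim probe sets have values near the floor, where a log2 difference depends on that floor. Of 25 members with several probe sets, 6 had probe sets of opposite sign in the matched comparison.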
